A study of Oryzias latipes with 15 samples.

Results

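The genes described here encode the 2 gonadotropin receptors and the membrane estrogen receptor of the medaka testis: fshr (ENSORLG00000010178), lhcgr (ENSORLG00000010892) and gper1 (ENSORLG00000005027). They were taken from the deposited expression table by gene name, which gave 3 of its 23028 genes, each with 1 entry. The 15 RNA-seq libraries come from the testis of medaka (Oryzias latipes) and form 5 groups of 3 biological replicates. Besides untreated controls there were a low dose of potassium perchlorate (KClO4, 0.01 mg/L), a high dose (10 mg/L KClO4), the high dose combined with vitamin C (3 mg/L), and vitamin C (3 mg/L) without perchlorate. Strain, age and exposure time are not in the labels, nor is the number of fish behind a replicate, so p-values measure only the spread between these samples.

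Follicle-stimulating hormone and luteinizing hormone are pituitary hormones that act on the gonad through the receptors encoded by fshr and lhcgr. Both receptors couple to Gs proteins and raise cyclic AMP, which drives steroid hormone synthesis in Leydig cells and the support of germ cells by Sertoli cells. In mammals fshr marks Sertoli cells and lhcgr marks Leydig cells, while in zebrafish Leydig cells carry fshr as well. The product of gper1 is a G protein-coupled receptor that binds estradiol at membranes, signals through cyclic AMP and the epidermal growth factor receptor, and in zebrafish holds oocytes in meiotic arrest. Perchlorate is known as an inhibitor of the thyroid's iodide transporter, and vitamin C as an antioxidant.

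Libraries held 3.21 to 21.3 M reads, with the low-dose libraries at 5.48 to 6.19 M and high-dose replicate 1 the shallowest. Testis markers were present: of the 14 Sertoli cell entries, which include amh, gsdf and dmrt1, 12 had a mean of at least 10 normalized counts, and cldn11b and sox8a were at 0 in some libraries. The low-dose libraries also held much oocyte RNA. The 10 oocyte markers, which include the egg coat gene zp3b and the oocyte growth factor gene bmp15, summed to 196347, 388507 and 39872 normalized counts in low-dose replicates 1, 2 and 3, against 437 to 589 in the controls. For the receptor genes, tests with the low dose are therefore given with and without replicates 1 and 2. Counts of called marker genes use all 3 low-dose libraries. In bulk tissue, fewer cells of a type and less RNA per cell cannot be told apart.

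The follicle-stimulating hormone receptor gene fshr was read deeply enough for precise values, with 115 to 1485 reads per library. It stood at 756, 758 and 724 normalized counts in control replicates 1, 2 and 3, and at 463, 276 and 609 in the low-dose libraries. High-dose libraries held 859, 541 and 780.2, co-treated libraries 600.0, 685 and 618, and libraries of vitamin C alone 437, 478 and 451. The controls lay close together, with a coefficient of variation of 2.51%, below the 3.65% that counting error alone gives. The low-dose and high-dose libraries were spread widely, at 37.3% and 22.8% against 6.64% and 4.58% from counting.

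Ordered by group mean, fshr was at 746 ± 18.8 in the controls, 727 ± 165 at the high dose, 635 ± 44.9 at the high dose with vitamin C, 455 ± 20.9 with vitamin C alone and 449 ± 167 at the low dose (SD, n = 3). Neighbours in this order overlapped between the controls and the high dose, between the high dose and the co-treated group, and between vitamin C alone and the low dose. The co-treated libraries and those of vitamin C alone did not overlap.

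The luteinizing hormone receptor gene lhcgr was read far less, with 4 to 75 reads per library, so counting error was a large part of its spread. Its normalized counts were 29.7, 34.9 and 40.2 in the controls, 16.4, 9.59 and 21.0 at the low dose, and 46.0, 48.2 and 57.4 at the high dose. With vitamin C added to the high dose they were 24.6, 30.6 and 26.9, and with vitamin C alone 23.6, 23.2 and 24.8. All 3 low-dose libraries lay below all others, and all 3 high-dose libraries lay above all others. The group means, in order, were 50.5 ± 6.07 at the high dose, 34.9 ± 5.26 in the controls, 27.4 ± 2.99 with both agents, 23.9 ± 0.825 with vitamin C alone and 15.7 ± 5.75 at the low dose (SD, n = 3). Of the neighbours in this order, the controls overlapped with the co-treated libraries, and these with vitamin C alone.

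The membrane estrogen receptor gene gper1 was near the limit of detection in the controls, which held 1, 3 and 9 reads, and at the low dose, which held 0, 1 and 4 reads. In normalized counts these were 1.06, 3.74 and 6.03 in the controls and 0, 2.40 and 6.004 at the low dose. The count of 0 in low-dose replicate 1 allows up to 6.14 normalized counts (3 reads), so the low-dose and control levels could not be told apart at this depth. High-dose libraries held 23.0, 38.5 and 24.4 normalized counts (8, 60 and 23 reads). Co-treated libraries held 16.2, 19.2 and 17.1 (40, 32 and 21 reads), and those of vitamin C alone held 11.2, 16.7 and 11.8 (19, 26 and 10 reads). Every library of these 3 groups lay above every control and low-dose library. By group mean the order was 28.7 ± 8.58 at the high dose, 17.5 ± 1.54 with both agents, 13.3 ± 3.04 with vitamin C alone, 3.61 ± 2.49 in the controls and 2.80 ± 3.02 at the low dose (SD, n = 3). The co-treated libraries and those of vitamin C alone overlapped, as did the controls and the low dose. The gene reached the minimum mean of 10 normalized counts needed for the test, with a mean of 13.2 over all libraries, only through the groups in which it was high.

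At the low dose, compared with the controls to ask what 0.01 mg/L perchlorate changed, both gonadotropin receptor genes fell and gper1 was not called. The mean of lhcgr was 2.23-fold lower, or -1.16 ± 0.31 on the log2(value + 1) scale (log2 fold change and its standard error, limma adjusted p = 0.00693). That of fshr was 1.66-fold lower (-0.80 ± 0.24, limma adjusted p = 0.0113). The difference in gper1 was -0.51 ± 0.62 with a 95% interval from -1.84 to 0.82. Thus 2 of the 3 genes fell, in a comparison in which 22.9% of the 17778 genes tested were called lower and 47.8% were called in either direction, so that many called genes are the background here. The low-dose libraries of both receptor genes did not overlap with the controls, as was the case for 26% of genes in this direction.

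The low-dose falls were uneven. The sums of the Sertoli, Leydig, and spermatid and sperm marker lists followed the order of fshr, while those of the germ cell list did not. Whether the cell make-up of the libraries explains the falls was not tested. Low-dose replicate 2, with the most oocyte RNA, had the lowest fshr and lhcgr, and replicate 3, with the least, had the highest. The Sertoli cell markers summed to 12930, 8495 and 17250.5 normalized counts in low-dose replicates 1, 2 and 3 against 23431 to 24975 in the controls, in the same order as fshr. Abundant genes dominate these sums. The list's mean log2 level, less the control mean, was -0.27, -0.81 and 0.07 in these replicates. The controls spanned -0.10 to 0.14, so by this measure replicate 3 lay inside their range. The 6 Leydig cell marker entries, which include the cholesterol carrier gene star, summed to 1328, 911 and 1818 against 1748 to 2083. Of 12 Sertoli markers tested, 1 was higher, 4 were lower and 7 did not pass, and of 5 Leydig markers 0 were higher, 2 were lower and 3 did not pass. These were 41.7% and 40% called, against 47.8% of all genes. With all 3 low-dose libraries, the spermatid and sperm markers moved most among the testis lists, with 1 of 14 higher and 11 lower (85.7% called). Their mean log2 level, less the control mean, was -0.67, -1.34 and -0.28 in low-dose replicates 1, 2 and 3. The controls spanned -0.21 to 0.16, so replicate 3 lay just below them. They summed to 18550, 13429 and 26253 normalized counts in low-dose replicates 1, 2 and 3 against 31441 to 42689 in the controls, again in the order of fshr. At the high dose they summed to 20481 to 27392, with 0 higher and 3 lower (21.4% called against 38.7% of all genes). Scaled on the mean level of these Sertoli and Leydig markers, fshr differed by -0.43 ± 0.20 and was no longer called (limma adjusted p = 0.0933), while lhcgr differed by -0.81 ± 0.28 and kept its call (limma adjusted p = 0.0331).

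Abundant genes as a whole were lower at the low dose: the 4696 genes that averaged 500 or more in the controls had a median of -0.31. This was not particular to the low dose. Their median was -0.37 at the high dose, -0.21 with both agents and -0.09 with vitamin C alone, each against the controls. The set was picked by its level in the same controls. Scaled on these genes, at the low dose fshr was at -0.50 ± 0.21 (limma adjusted p = 0.0557) and lhcgr at -0.88 ± 0.31 (limma adjusted p = 0.0316). Without low-dose replicates 1 and 2, with the remaining library assumed to vary like the other groups, fshr was at -0.29 ± 0.21 (limma adjusted p = 0.414) and lhcgr at -0.70 ± 0.36 (limma adjusted p = 0.25), so neither call held. With the 2 groups alone in the fit, both calls were lost as well, at adjusted p of 0.0844 and 0.0716 by limma.

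At the high dose, compared with the same control libraries, gper1 rose and neither gonadotropin receptor gene was called. The mean of gper1 was 7.94-fold higher than in the controls, with a log2 difference of 2.82 ± 0.62 (limma adjusted p = 0.00269), higher in 3 of 3 libraries than in any control. On the reads recovered from the table, edgeR gave 2.91 (adjusted p = 7.57e-04) and DESeq2 2.94 ± 0.59 (adjusted p = 6.11e-06). The call held without any single library, with values from 2.32 to 3.21, although quantile normalization brought it down to 1.66 ± 0.47 (limma adjusted p = 0.014). Because gper1 entered the test through its high groups, the fit with no filter on low values was also read, and gave the same 2.82 ± 0.61 (limma adjusted p = 0.00252). It was thus 1 of 3 genes, against 18.3% of genes called higher and 38.7% called in either direction.

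For lhcgr the high dose gave a log2 difference of 0.52 ± 0.31 from the controls (limma adjusted p = 0.194, 95% interval -0.14 to 1.18). Its 3 libraries were all above the controls, as in 28.6% of genes, and the value became -0.11 under quantile normalization and 0.89 ± 0.31 with a call (limma adjusted p = 0.0336) when scaled on abundant genes. For fshr the difference was -0.06 ± 0.24 (limma adjusted p = 0.852) with an interval from -0.56 to 0.43, and its sign turned under both of these scalings. Scaled on Sertoli and Leydig markers, fshr differed by -0.13 ± 0.20 (limma adjusted p = 0.655). Of the 12 Sertoli markers tested at the high dose, 1 rose (wt1b) and 2 fell, both of them entries of amh. These were 25% called, against 38.7% of all genes. The list's mean log2 level stayed inside the range of the controls. Its summed counts, which the abundant genes dominate, did not: they were 15902 to 18687, below the 23431 to 24975 of the controls.

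The 2 doses were compared directly, and all 3 genes were higher at the high dose than at the low dose. The log2 difference was 3.33 ± 0.62 for gper1 (limma adjusted p = 8.64e-04), 1.69 ± 0.31 for lhcgr (limma adjusted p = 7.62e-04) and 0.74 ± 0.24 for fshr (limma adjusted p = 0.0182). In this comparison 22.4% of genes were called higher and 48.4% were called in either direction. The means of lhcgr, 50.5 against 15.7, differed 3.23-fold, and those of gper1 differed 10.2-fold against a low-dose group that held 5 reads in all. With no filter on low values the gper1 difference was 3.33 ± 0.61 (limma adjusted p = 7.75e-04). The libraries of lhcgr and gper1 did not overlap between the doses, as in 20.5% of genes in this direction, while those of fshr did, since high-dose replicate 2 at 541 lay below low-dose replicate 3 at 609. The call of fshr was lost without low-dose replicate 2 (0.43 ± 0.19, limma adjusted p = 0.0857), without high-dose replicate 1 or 3 (limma adjusted p = 0.0708 and 0.0602) and when scaled on Sertoli and Leydig markers (0.30 ± 0.20, limma adjusted p = 0.223). It was 0.23 ± 0.21 without low-dose replicates 1 and 2 (limma adjusted p = 0.476), while lhcgr and gper1 stayed called there.

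**Figure D1:**
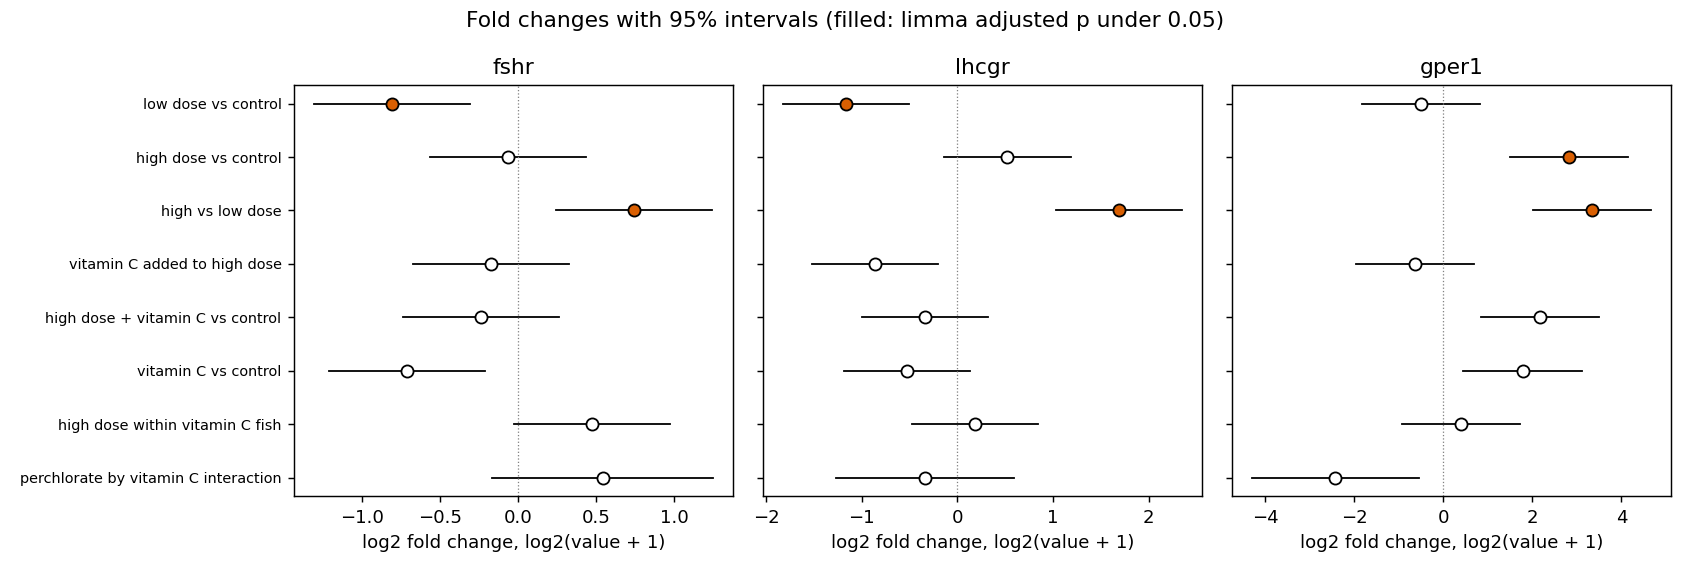
Log2 fold change of each gene on the log2(value + 1) scale (horizontal axes, with a scale of its own for each gene) in the 8 comparisons (vertical axis); lines are 95% intervals from the fit of all 15 libraries and filled points have a limma adjusted p under 0.05. Filled points are fshr and lhcgr in the low dose against control (-0.80 and -1.16), gper1 in the high dose against control (2.82) and all 3 genes in the high against the low dose.

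Vitamin C was added to the high dose to ask whether it changes the response to perchlorate. With limma 0 of the 3 genes were called between high-dose fish given vitamin C and those given none, where 10.4% of all genes were, although 1 gene had an unadjusted p under 0.05. That gene was lhcgr, whose 3 co-treated libraries, at 24.6 to 30.6 normalized counts, all lay below the 3 high-dose libraries, at 46.0 to 57.4, as in 19.1% of genes. Its mean was 1.84-fold lower, with a log2 difference of -0.86 ± 0.31 (limma adjusted p = 0.0877, 95% interval -1.52 to -0.20). DESeq2 called it on the recovered reads (-0.90 ± 0.29, adjusted p = 0.0147), the only 1 of the 3 genes it called, and edgeR called 0 of them (-0.83 for lhcgr, adjusted p = 0.0573). Over all genes DESeq2 made more than 1.5 times as many calls here as limma, so the 10.4% is limma's share only. With the replicate number as a block, since same-numbered libraries of these 2 groups deviated together weakly, lhcgr was at -0.86 ± 0.31 (limma adjusted p = 0.0986). This block spanned all 15 libraries, also those of groups that did not deviate together in this way, and the labels give no pairing. The differences were -0.65 ± 0.62 for gper1 (limma adjusted p = 0.507) and -0.17 ± 0.24 for fshr (limma adjusted p = 0.65), with intervals from -1.97 to 0.68 and from -0.67 to 0.33. The co-treated libraries of gper1, at 16.2 to 19.2, also lay below all high-dose libraries, at 23.0 to 38.5, while those of fshr overlapped.

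Against the controls, the co-treated fish had more gper1 in 3 of 3 libraries, as in 17.6% of genes, with a mean 4.85-fold higher and a log2 difference of 2.17 ± 0.62. This did not pass with limma (adjusted p = 0.0622) and passed with edgeR (2.22, adjusted p = 0.0314) and DESeq2 (2.17 ± 0.58, adjusted p = 0.0056), both of which called 1 of the 3 genes. It also passed with limma when only these 2 groups were fitted (adjusted p = 0.0142) and without control replicate 3 (adjusted p = 0.0405). In all of these fits gper1 entered only through its high groups, and the control libraries held 1, 3 and 9 reads. By limma 0 of the 3 genes were called, 1 had an unadjusted p under 0.05, and 3.62% of all genes were called. Over all genes, DESeq2 and the fit of only these 2 groups each made more than 1.5 times as many calls as that. The other two were at -0.33 ± 0.31 for lhcgr and -0.24 ± 0.24 for fshr, with intervals from -0.99 to 0.32 and from -0.73 to 0.26. All co-treated libraries of fshr lay below the controls, as in 22% of genes.

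Vitamin C alone gave few calls in the testis, at 0.405% of all genes. With limma 0 of the 3 receptor genes were called, and edgeR and DESeq2 called 0 of them, but 2 had an unadjusted p under 0.05. The libraries of all 3 genes did not overlap with the controls, against 14.6% of genes fully higher and 13% fully lower. The mean of fshr was 1.64-fold lower, with a log2 difference of -0.71 ± 0.24 (limma adjusted p = 0.301, 95% interval -1.21 to -0.21). Of the 12 Sertoli markers limma, edgeR and DESeq2 called 0 there, and 0 had an unadjusted p under 0.05. The summed counts of the Sertoli list, which abundant genes dominate, were 20328 to 21810, below the 23431 to 24975 of the controls. Its mean log2 level, less the control mean, was -0.105 to 0.013, against -0.099 to 0.142 in the controls. With only these 2 groups in the fit, where their small spread is not joined with that of the perchlorate groups, fshr passed (-0.71 ± 0.10, limma adjusted p = 0.00317). Over all genes that fit made more than 1.5 times as many calls as the fit of all libraries. The mean of gper1 was 3.67-fold higher, at 1.78 ± 0.62 (limma adjusted p = 0.352), and that of lhcgr was 1.46-fold lower, at -0.52 ± 0.31 (limma adjusted p = 0.656).

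Within fish given vitamin C, the high dose gave differences of 0.48 ± 0.24 for fshr (limma adjusted p = 0.52), whose libraries did not overlap, as in 14.9% of genes, 0.19 ± 0.31 for lhcgr and 0.39 ± 0.62 for gper1. None of these 3 genes was called by limma, edgeR or DESeq2 or had an unadjusted p under 0.05, in a comparison with 0.27% of genes called. The effect of the high dose was then compared between fish with and without vitamin C, as an interaction. For gper1 this was -2.43 ± 0.88 (limma adjusted p = 0.0934, 95% interval -4.30 to -0.55), a rise of 2.82 without vitamin C set against 0.39 with it. Read the other way, vitamin C gave 1.78 ± 0.62 from the controls and -0.65 ± 0.62 at the high dose, neither called by limma. The control level rests on 1, 3 and 9 reads, and gper1 entered the test only through its high groups. Its interaction passed with edgeR (-2.49, adjusted p = 0.0382) and DESeq2 (-2.55 ± 0.74, adjusted p = 0.00884), which each called 1 of the 3 genes, and with only these 4 groups in the fit (limma adjusted p = 0.0122). The interaction was 0.54 ± 0.33 for fshr and -0.34 ± 0.44 for lhcgr, with intervals from -0.16 to 1.25 and from -1.27 to 0.60. With limma 0 of the 3 were called and 1 had an unadjusted p under 0.05, against 8.08% of all genes called. Over all genes, DESeq2 and the fit of only these 4 groups each made more than 1.5 times as many calls as that.

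Ratios between the genes within a library do not depend on how libraries are scaled. There were 3.93, 4.61 and 5.55 lhcgr reads per 100 fshr reads in the controls and 3.54, 3.48 and 3.45 at the low dose. High-dose libraries had 5.35, 8.90 and 7.36, libraries with both agents 4.11, 4.46 and 4.36, and libraries of vitamin C alone 5.40, 4.85 and 5.497. The low-dose ratios lay below all controls but rest on 8, 4 and 14 lhcgr reads, for which counting error alone gives a coefficient of variation of 35.6%, so how close they lie to each other cannot be read. The high-dose ratios overlapped with the controls and lay above the co-treated libraries. For gper1 the controls had 0.14, 0.493 and 0.833 reads per 100 fshr reads and the low-dose libraries 0, 0.87 and 0.985, while the other 9 libraries had 2.56 to 7.12. The ratios are given as a description and were not tested.

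**Figure D2:**
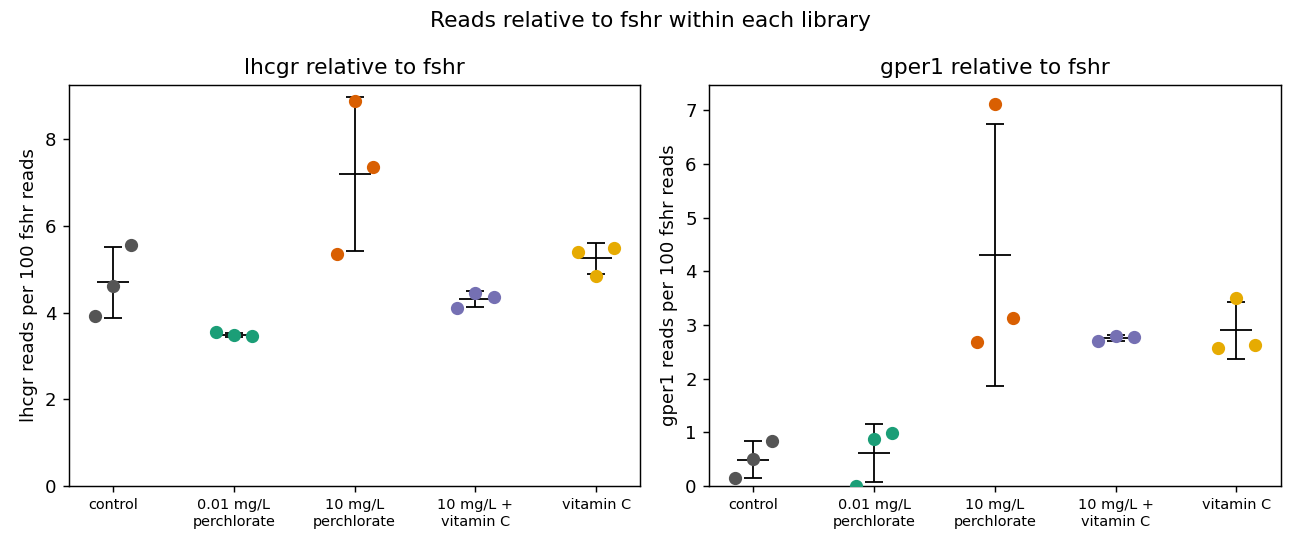
Reads of lhcgr (left) and gper1 (right) per 100 fshr reads in each library (vertical axes, from 0), by group; bars are the mean and SD of 3 libraries. The ratio of lhcgr to fshr is 3.45 to 3.54 at the low dose and 5.35 to 8.90 at the high dose, and that of gper1 to fshr is at most 0.985 in control and low-dose libraries and at least 2.56 in all others.

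Markers of other tissues also moved with the groups, and their part in the receptor results was not tested. The 9 exocrine pancreas entries, which include the elastase gene CELA1, summed to 834 to 1135 normalized counts at the high dose against 181 to 364 in the controls. There 8 of 8 tested rose (100% called against 38.7% of all genes). With both agents they summed to 381 to 679, above all controls, and 2 of 8 rose (25% called against 3.62% of all genes). The 15 kidney and gut entries, which include the sodium chloride transporter gene slc12a3, summed to 3052 to 5058 against 785 to 1663. Of 12 tested, 5 rose and 1 fell (50% called against 38.7% of all genes). With both agents they summed to 550.3 to 648, below all controls. Beside the gper1 values of vitamin C alone, the kidney and gut markers were at 553 to 622 and the pancreas markers at 223 to 432, so the former were below and the latter overlapped with the controls. Oocyte markers summed to 2547 to 3903 with vitamin C alone, 1907 to 2483 with both agents and 1352 to 2086 at the high dose. All of these were above the 437 to 589 of the controls. Ovarian follicle markers, of which the aromatase gene cyp19a1a is a defining gene and foxl2a, hsd17b1 and wnt4b were at 0 in some libraries, summed to 107 to 427 at the low dose, 80.4 to 266 at the high dose, 52.1 to 84.1 with both agents, 23.8 to 39.5 with vitamin C alone and 22.3 to 40.2 in the controls. At the low dose 3 of the 4 tested rose (75% called against 47.8% of all genes), hsd17b1 (5.13 ± 0.64), cyp19a1a (2.80 ± 0.75) and wnt4 (2.51 ± 0.50). Without low-dose replicates 1 and 2 these were at 3.81 ± 0.93, 1.23 ± 0.94 and 1.69 ± 0.61. At the high dose 2 of the 4 rose (50% called against 38.7% of all genes), fsta and wnt4, while cyp19a1a did not pass (1.01 ± 0.75, limma adjusted p = 0.301). With both agents limma called 0 of the 4, with 2 at an unadjusted p under 0.05 and 0 by edgeR and DESeq2. In the low-dose libraries, which had the most oocyte RNA, gper1 was at 0 to 6.004 normalized counts.

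**Figure D3:**
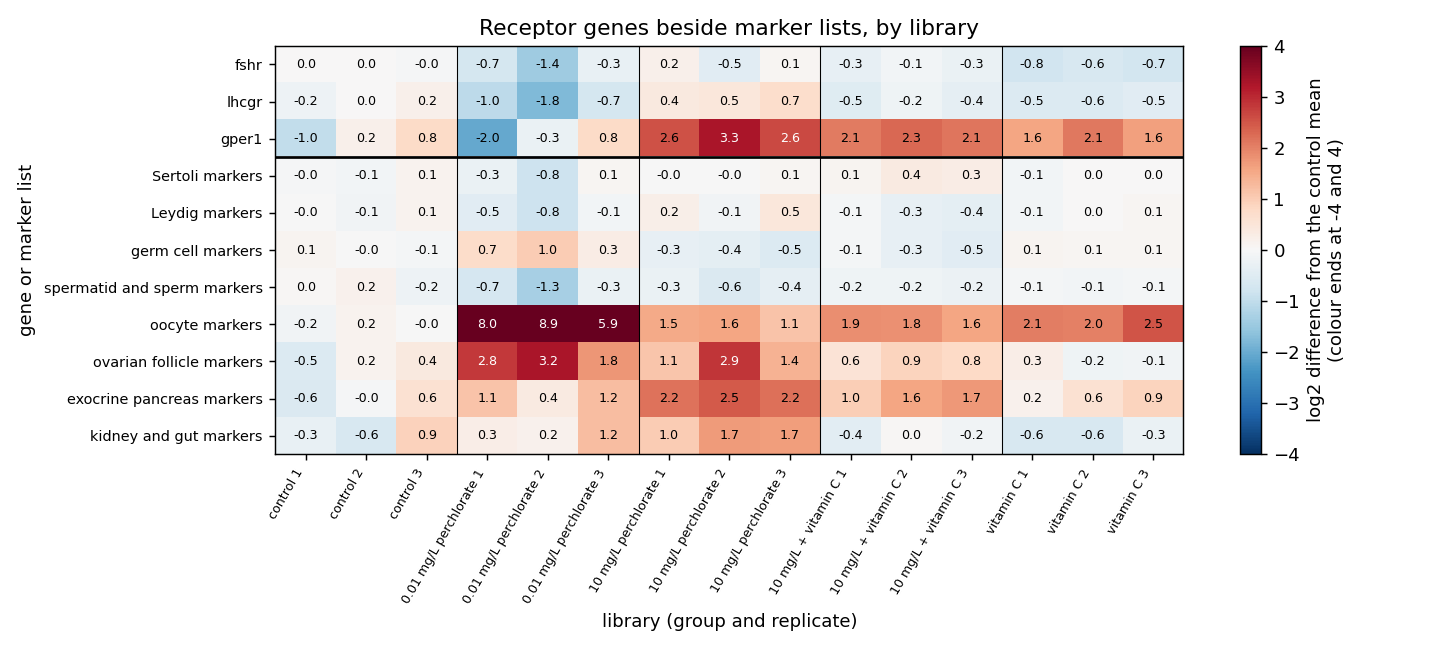
Log2 difference from the control mean (colour and printed value, colours ending at -4 and 4) of the receptor genes and of the mean of each marker list (rows) in each library (columns). The low-dose libraries have oocyte markers at 5.88 to 8.86 with fshr and lhcgr at their lowest in replicate 2, and the 9 libraries with gper1 above all controls have kidney and gut markers on both sides of 0. In the same 9 libraries the oocyte markers are at 1.139 to 2.505, above all controls. Their exocrine pancreas markers are at 0.18 to 2.47, partly inside the range of the controls (-0.58 to 0.62).

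Other hormone receptors and ligands were read from a list of 49 symbols, of which 36 entries were in the table and 33 were tested. At the low dose 4 were higher, 5 were lower and 24 did not pass (27.3% called against 47.8% of all genes, median -0.28 against -0.01). The estrogen receptor gene esr2b fell with the gonadotropin receptors, from 54.65 ± 2.33 to 27.2 ± 1.18 normalized counts (-0.98 ± 0.28 on the log2 scale, limma adjusted p = 0.00974), and esr1 fell by 0.56 ± 0.21 on the log2 scale. The membrane progestin receptor gene paqr5a rose by 4.47 ± 0.67. Without low-dose replicates 1 and 2, paqr5a at 2.6003 ± 0.65 was the 1 call of the 33, esr2b was at -0.91 ± 0.37 (limma adjusted p = 0.147) and esr1 at -0.31 ± 0.26 (limma adjusted p = 0.482), and without any one library 3 to 15 were, with 3 without control replicate 1, 4 when replicate 2 of either group was left out, and 15 without low-dose replicate 3. At the high dose 11 were higher, 1 was lower and 21 did not pass (36.4% called against 38.7% of all genes, median 0.34 against 0.05). There the prolactin receptor gene prlra rose by 2.68 ± 0.36, from 24.98 ± 8.55 to 163 ± 39.85 normalized counts, paqr5a by 3.12 ± 0.67, the relaxin receptor gene rxfp1 by 2.25 ± 0.52 and the orphan receptor gene esrrb by 1.46 ± 0.34. The androgen receptor gene ar rose by 1.33 ± 0.46 (limma adjusted p = 0.0313), with high-dose replicate 2 at 79.0 normalized counts and the others at 23.0 and 31.9, while esr1, esr2a and esr2b did not pass. Without control replicate 2 the list had 7 calls in place of 12, and without high-dose replicate 2 it had 6.

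The hormone subunit genes, known for their expression in the pituitary, were read in the testis too. The follicle-stimulating hormone beta gene fshb stood at 37.1, 41.1 and 61.6 normalized counts in the controls and 147, 76.4 and 128 at the high dose (1.29 ± 0.31, limma adjusted p = 0.00426). It was also above all controls at the low dose (77.8, 62.3 and 96.1) and with both agents (76.0, 128 and 89.8). With vitamin C alone it was at 46.0, 67.0 and 55.5. The shared alpha subunit gene cga rose at the high dose from 28.45 ± 2.98 in the controls to 68.7 ± 13.4 (1.23 ± 0.37, limma adjusted p = 0.0162). The luteinizing hormone beta gene lhb had at most 7 reads in any library and was not tested. With vitamin C added to the high dose, prlra fell by 1.71 ± 0.36, paqr7b by 0.92 ± 0.21, the thyroid hormone receptor gene thra by 1.54 ± 0.43 and paqr5a by 2.25 ± 0.67. These were the 4 called of 33, all lower (12.1% against 2.64% of all genes called lower and 10.4% called), and 1 to 4 were called without any one library, fewest without high-dose replicate 2 or co-treated replicate 2 or 3. The gene cga did not pass there (-1.18 ± 0.37, limma adjusted p = 0.0533).

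Of 42 tested genes of cyclic AMP signalling, which carries the gonadotropin signal, 9 rose and 10 fell at the low dose and 12 rose and 7 fell at the high dose, 45.2% in each, close to the 47.8% and 38.7% of all genes. At the high dose prkar1ab, a regulatory subunit gene of protein kinase A, changed by -1.57 ± 0.21, the receptor kinase gene grk3 by -1.41 ± 0.23, the coactivator gene CRTC2 by -1.74 ± 0.30 and the arrestin gene arrb2a by -1.32 ± 0.23. All 4 were higher than at the high dose when vitamin C was added, by 1.04 ± 0.21, 1.06 ± 0.23, 1.17 ± 0.30 and 0.79 ± 0.23. There 5 of the 42 genes were higher and 0 lower, or 11.9% called, close to the 10.4% of all genes (7.74% called higher). These 4 genes had the smallest adjusted p of the list in both comparisons, which use the same high-dose libraries. At the low dose the adenylate cyclase gene adcy1b rose by 5.08 ± 0.62 and the phosphodiesterase gene pde8a by 2.22 ± 0.40. Without low-dose replicates 1 and 2, adcy1b at 3.68 ± 0.80 was the 1 call of the 42, and pde8a was at 1.09 ± 0.37 (limma adjusted p = 0.0854). At the high dose 11 were called without control replicate 2 or high-dose replicate 2, and the 5 calls with vitamin C became 1 to 6 without any one library, fewest without co-treated replicate 3.

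Of 21 tested genes that gonadotropins are known to act on, such as steroid enzyme and Sertoli factor genes, 3 rose and 6 fell at the low dose (42.9% called against 47.8% of all genes) and 4 rose and 3 fell at the high dose (33.3% against 38.7%). The Sertoli hormone gene amh has 2 entries. The abundant one (ENSORLG00000015951) fell by 1.56 ± 0.27 and 1.48 ± 0.27 at the low and the high dose, and the other one (ENSORLG00000005044) was at -0.02 ± 0.21 at the low dose and fell by 0.62 ± 0.21 at the high dose. The ferredoxin reductase gene FDXR, which feeds electrons to steroid enzymes, fell by 0.93 ± 0.17 and 0.90 ± 0.17. The activin subunit gene inhbaa rose by 2.80 ± 0.67 and 2.88 ± 0.67. Between the doses 6 of the 21 were higher at the high dose and 2 were lower (38.1% called against 48.4% of all genes). The androgen enzyme gene cyp11b was higher by 1.42 ± 0.31 and the Sertoli factor gene gsdf by 0.85 ± 0.24, as lhcgr and fshr were. The steroid enzyme gene hsd17b1, with the smallest adjusted p, was lower by 3.53 ± 0.64. At the low dose hsd17b1 rose by 5.13 ± 0.64, from 1.22 ± 0.14 to 95.4 ± 70.5 normalized counts. Without low-dose replicates 1 and 2 its differences were -2.21 ± 0.93 between the doses and 3.81 ± 0.93 at the low dose. With vitamin C added to the high dose, star fell by 1.07 ± 0.27 (limma adjusted p = 0.0213), from 640.3 ± 236 to 303 ± 115 normalized counts, and FDXR rose by 0.93 ± 0.17. At the low dose 1 of the 21 was called without replicates 1 and 2, where the abundant amh entry was at -0.99 ± 0.31, FDXR at -0.64 ± 0.20 and inhbaa at 1.94 ± 0.86 (limma adjusted p = 0.0708, 0.0661 and 0.178). Between the doses, without these replicates, cyp11b was at 0.51 ± 0.20 and gsdf at 0.40 ± 0.21 (limma adjusted p = 0.0936 and 0.2), and without control replicate 1 or 2, 4 were called at the high dose.

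Of 32 tested genes of the kinase cascades through which gper1 is known to signal, 8 rose and 13 fell at the low dose (65.6% called against 47.8% of all genes) and 5 rose and 10 fell at the high dose (46.9% against 38.7%). The kinase genes map2k2a and araf fell at the high dose by 1.61 ± 0.18 and 1.82 ± 0.26, in the libraries where gper1 rose. In the same libraries hbegfa and mmp14b, also on the list, rose by 1.11 ± 0.29 and 1.32 ± 0.30. With both agents against the controls 1 of the 32 rose, hbegfa (1.32 ± 0.29), and 3 fell (12.5% called against 3.62% of all genes). At the low dose limma called 0 of the 32 without replicates 1 and 2. With vitamin C added, map2k2a rose by 1.21 ± 0.18. With vitamin C alone limma called 0 members of each of these 4 lists, and those with an unadjusted p under 0.05 were 0 of 33 receptor and ligand genes, 3 of 42 cyclic AMP genes, 0 of 21 target genes and 6 of 32 kinase cascade genes. DESeq2 called 1 cyclic AMP gene and edgeR 0 there, and both called 0 in the other 3 lists.

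The genes most like each receptor were found by the smallest root mean square difference over the 15 libraries, in log2 values centred on each gene's mean. For fshr they were ppt2b (0.18), krt8 (0.19), ogg1 (0.20), ngb (0.20) and dtna (0.20), against a root mean square of 0.42 for fshr around its own mean. For lhcgr they were dtna (0.23), kazna (0.24), DOCK10 (0.24), rap1gapa (0.25) and KIF26A (0.26), against 0.60. For gper1 they were AGAP2 (0.67), pappaa (0.72), runx2b (0.79), fign (0.79) and RNF220 (0.81), against 1.44. Counting error alone gives gper1 a coefficient of variation of 52.4% in the controls and 84.1% at the low dose. How closely these genes follow it can therefore not be read. The group means of AGAP2 were 16.7 normalized counts in the controls, 21.6 at the low dose, 160.1 at the high dose, 60.1 with both agents and 41.0 with vitamin C alone. The candidates were the 9467 named genes with a mean of at least 50 normalized counts, or 9466 for fshr, which is itself among them.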

How the data were processed

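For 23028 genes the authors deposited 1 signal value in each library, which is a read count divided by a library factor. The submitters' processing notes name fastp 0.23.2, STAR 2.7.7a and DESeq2 1.34.0. Build, counting step and strand setting are not stated there, so no coordinates are printed, and a gene that overlaps another, also on the other strand, has an uncertain value. Dividing each library's deposited values by its smallest one above 0 gave whole reads for 100% of 345420 values (within 0.001), in the ratios of DESeq2's size factors. Replicates differed beyond sampling noise (chi-square per degree of freedom 3.42 to 142), and the precision of lhcgr and gper1 is set by their few reads.

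The main test was limma 3.58.1 in R 4.3.3 on log2(value + 1), with its variance prior following the mean level. It was fitted over all 15 libraries and the 17778 genes averaging 10 or more, with Benjamini-Hochberg adjustment over these genes in each of 8 contrasts and a threshold of 0.05. Fold changes understate the change of low genes and share 1 spread per gene over all groups. Alternatives were edgeR 4.0.16 (quasi-likelihood) and DESeq2 1.42.0 on the recovered reads, other pseudocounts, filters, scalings and subsets of libraries, a replicate block and array weights. The fit was tested on simulated counts with the same dispersion for all genes and groups. Unequal spread between groups, as in these data, was therefore not covered by that test. The labels give no pairing of libraries by number. Same-numbered libraries of the high-dose and the co-treated group deviated together weakly, with correlations of 0.361, 0.198 and 0.124, all above a bound of 0.1. In no other 2 groups did all 3 exceed it. Single correlations between other groups ran from -0.197 to 0.193, so whether the numbers mark pairs is uncertain.

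The genes, the pathway and marker lists, the rule for naming genes and the alternatives were chosen with earlier results of these data known. The rule names the 3 receptors, up to 4 called members of each pathway list and contrast with the smallest adjusted p, the estrogen and androgen receptors, the hormone subunits and the 5 genes most like each receptor; the text names a part of these. Symbols were matched regardless of case. Symbols of the lists without an entry in the table were not analysed here. Intervals and the limit from a count of 0 cover counting error or the spread between libraries only.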

Additional observations from a re-analysis of the deposited data

How the results depend on the processing

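Values are log2 differences with limma adjusted p unless another tool is named. For the low dose against control, fshr lost its call when scaled on abundant genes (control mean 500 or more) (-0.50), when scaled on Sertoli and Leydig markers (-0.43), with only the groups of the contrast (-0.80) and without low-dose replicates 1 and 2 (-0.29). In the same comparison lhcgr lost it with only the groups of the contrast (-1.16) and without these replicates (-0.70), and gper1 was called with array weights (-1.32) and turned to 0.77 without these replicates. Leaving out 1 library gave -1.06 to -0.49 for fshr, -1.40 to -0.87 for lhcgr and -1.15 to 0.25 for gper1, the last turning without low-dose replicate 1. For the high dose against control, fshr turned to 0.22 with quantile normalization, 0.31 when scaled on abundant genes, 0.0031 with array weights and 0.13 without high-dose replicate 2, the highest of -0.20 to 0.13 without 1 library. There lhcgr turned to -0.11 with quantile normalization and was called when scaled on abundant genes (0.89) and with array weights (0.76). For the high against the low dose, fshr lost its call when scaled on Sertoli and Leydig markers (0.30), with only these groups (0.74) and without low-dose replicates 1 and 2 (0.23), and 1 library left out gave 0.43 to 0.996.

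For the high dose with against without vitamin C, lhcgr was called by DESeq2 (-0.90) and with array weights (-0.91). For both agents against control, gper1 was called with a pseudocount of 5 (1.43), edgeR (2.22), DESeq2 (2.17) and only these groups (2.17). It was also called with the replicate block (2.17, adjusted p = 0.0457) and array weights (2.81). Same-numbered libraries of these groups did not all deviate together, and the labels give no pairing. With 1 library left out, gper1 was at 1.68 to 2.56. For vitamin C alone, only these groups (-0.71) and array weights (-0.68) called fshr, and array weights called gper1 (2.59). For both agents against vitamin C alone, array weights called fshr (0.47) and quantile normalization turned lhcgr to -0.046. For the interaction, array weights called fshr (0.46), quantile normalization turned lhcgr to 0.065, and gper1 was called with a pseudocount of 5 (-1.67), edgeR (-2.49), DESeq2 (-2.55), only these groups (-2.43) and array weights (-3.08). The cause of these changes was not tested. A minimum mean of 50 left only fshr and gave no value for the others. The replicate block changed no other call of the 3 genes.

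Counts of all genes called moved over 1.5 times as follows. With only the groups of the contrast they were 3250 at the low dose against control (8499 in the fit of all libraries), 2568 between the doses (8612), 3142 for adding vitamin C to the high dose (1845), 3704 for both agents against control (643), 671 for vitamin C alone (72), 215 for both agents against vitamin C alone (48) and 5055 for the interaction (1436). With array weights they were, in that order but with the high dose against control (6886) in place of the doses, 13192, 10940, 6719, 9874, 6657, 8301 and 8855. With DESeq2 they were 3693, 1956, 257, 173 and 3133 for the last 5 of these comparisons. Scaled on Sertoli and Leydig markers they were 703, 242, 31 and 145 for adding vitamin C, both agents against control, vitamin C alone and the interaction. Both agents against control gave 343 with quantile normalization and 262 with a minimum mean of 50, which gave 22 for both agents against vitamin C alone. Without low-dose replicates 1 and 2 they were 1213 at the low dose and 2803 between the doses. Without 1 library they were 559 to 1613 for adding vitamin C, 45 to 1137 for both agents against control, 8 to 84 for vitamin C alone, 20 to 126 for both agents against vitamin C alone and 132 to 1825 for the interaction. Few reads limit gper1 at the control and low-dose levels.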
